A study of Homo sapiens with 2 samples.

Results

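The mitosis genes described here are 10 genes of cell division, read by nanopore direct RNA sequencing in the human cell line GM12878: CCNB1, CCNB2, CDK1, AURKA, AURKB, PLK1, CDC20, TOP2A, MKI67 and BIRC5. They were taken by gene symbol from the table of transcript models, and all 10 were among the 16645 annotated genes with a read. Together they held 365 of the 237608 models, and their reads numbered 1592 of 1360368 in replicate 1 and 1802 of 1510998 in replicate 2. GM12878 is a lymphoblastoid line, B cells immortalised with Epstein-Barr virus. The study, on software that discovers and counts transcripts in long reads, has 2 libraries of these cells, which form 1 group with no treatment in the labels. Native RNA strands were read from the 3′ end without amplification, so a strand gives at most 1 read whatever its length, and reads per 1000000 reads of the library (CPM) were compared between genes without division by length. The labels do not say whether the replicates came from separate cultures, so differences between them may be technical, and each p-value here compares the reads of these 2 libraries and no conditions.

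The products of these genes carry a cell through mitosis. Cyclin B1 and cyclin B2 (CCNB1, CCNB2) activate the kinase CDK1, which drives entry into mitosis, and PLK1 and Aurora A (AURKA) promote that entry and build the spindle. Aurora B (AURKB) works with survivin (BIRC5) in the chromosomal passenger complex, which corrects faulty attachments of chromosomes to the spindle, while topoisomerase II alpha (TOP2A) untangles sister DNA and Ki-67 (MKI67) coats mitotic chromosomes. CDC20 then activates the anaphase-promoting complex, which marks cyclin B for destruction. Transcription of such genes peaks late in the cell cycle through promoters that carry CCAAT boxes, bound by NF-Y, and the cell cycle genes homology region, bound by the DREAM and MYB-MuvB complexes. In bulk RNA a larger part of cells in mitosis and more of the RNA per cell cannot be told apart.

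An exact sequence for each element was looked for in the promoters of the genes. RefSeq promoters (GRCh38.p14, 250 bases before to 50 after the start) were matched for 8 of the 10 genes. AURKA and BIRC5 had no match, and CDK1 and AURKB had 2 starts each. The motif CCAAT, searched on both strands, was found in all 8 matched genes, and TTTGAA, searched likewise and known as a core sequence of the cell cycle genes homology region, in 6 of them. Both motifs were held by 6 of the 8 matched genes. Counted by promoter they were held by 7 of the 10 promoters, 2 of which belong to CDK1. Of all 35116 promoters of that length, 5.90% held both, 34.6% CCAAT and 15.2% TTTGAA. As examples, 3 of the member promoters with both motifs are printed 5′ to 3′, with matches on either strand in capitals. They are CCNB2 (chr15:59104896-59105195, plus strand), PLK1 (chr16:23678639-23678938, plus strand) and CDC20 (chr1:43358731-43359030, plus strand):
CCNB2: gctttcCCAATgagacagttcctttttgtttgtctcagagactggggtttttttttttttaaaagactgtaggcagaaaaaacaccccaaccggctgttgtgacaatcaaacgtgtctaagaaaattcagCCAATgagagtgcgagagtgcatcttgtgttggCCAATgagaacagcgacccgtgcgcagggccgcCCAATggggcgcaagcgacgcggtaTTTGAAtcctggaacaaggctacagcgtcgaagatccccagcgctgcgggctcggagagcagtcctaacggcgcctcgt
PLK1: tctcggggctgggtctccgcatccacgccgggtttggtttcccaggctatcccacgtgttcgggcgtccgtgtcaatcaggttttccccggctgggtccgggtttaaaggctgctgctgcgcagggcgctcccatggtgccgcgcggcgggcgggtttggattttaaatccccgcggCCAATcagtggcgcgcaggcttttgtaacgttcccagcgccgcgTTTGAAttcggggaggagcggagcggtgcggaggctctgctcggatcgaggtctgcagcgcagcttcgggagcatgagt
CDC20: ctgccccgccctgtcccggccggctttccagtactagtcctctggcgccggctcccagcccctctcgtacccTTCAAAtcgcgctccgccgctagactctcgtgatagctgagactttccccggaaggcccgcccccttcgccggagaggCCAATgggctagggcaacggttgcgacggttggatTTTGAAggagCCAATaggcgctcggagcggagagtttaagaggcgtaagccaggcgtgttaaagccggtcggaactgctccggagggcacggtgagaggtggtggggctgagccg
In CCNB2 and PLK1, TTTGAA began 29 bases before the RefSeq start. The nearest CCAAT began 54 bases before the start in CCNB2 and 73 bases before it in PLK1. CDC20 carried TTTGAA on the plus strand 65 bases before the start, between CCAAT boxes at 100 and 55 bases. MKI67 held both motifs overlapping, the 3′ end of TTTGAA running into an inverted CCAAT box 24 bases before its start. Positions varied: TOP2A held TTTGAA only at 194 and, inverted, 151 bases before its start. At 1 of its 2 starts, CDK1 held it only at 161 bases. Of the 2 motifs, CCNB1 and AURKB held CCAAT only. No other sequence was searched for the homology region, so a promoter without TTTGAA was not shown to lack that region. A match describes these letters and not a bound site.

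All 10 genes were well represented in both libraries. BIRC5 (ENSG00000089685.14, chromosome 17, 78214186 to 78225636, plus strand, GRCh38) was highest, at 178.6 CPM (replicate 1) and 178.7 CPM (replicate 2), with a mean of 179 CPM ± 0.0436 (SD, n = 2). That SD is below the worth of 1 read (0.735 and 0.662 CPM) and does not measure counting error. CDC20 (chromosome 1, 43358955 to 43363203) had 176 and 161 CPM, a mean of 168 CPM ± 10.5 (SD, n = 2). CCNB1 (chromosome 5, 69167010 to 69178245) had 159.5 CPM in each replicate. These 3 genes led the order, although BIRC5 and CDC20 were only 4 reads apart in replicate 1 (243 and 239 reads), and CDC20 and CCNB1 only 2 reads apart in replicate 2 (243 and 241 reads). PLK1 (chromosome 16, 23677656 to 23690367) had 129 and 146 CPM. AURKB (chromosome 17, 8204733 to 8210600, minus strand) followed with 119 and 124 CPM. CCNB2 (chromosome 15, 59105078 to 59125045), the other B-type cyclin, had 97.0 and 92.0 CPM, below CCNB1 in both libraries.

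The lower part of the order was closely spaced. MKI67 (chromosome 10, 128096659 to 128126385, minus strand) had 97.0 and 91.3 CPM, and TOP2A (chromosome 17, 40388516 to 40417950, minus strand) had 78.7 and 97.9 CPM. CDK1 (chromosome 10, 60778331 to 60794852) had 72.0 and 87.4 CPM. In this stretch CCNB2 and MKI67, MKI67 and TOP2A, and TOP2A and CDK1 overlapped between the libraries, so their order is not resolved. AURKA (chromosome 20, 56369389 to 56392337, minus strand) was lowest in both libraries, with 64.0 and 54.3 CPM. Neighbours did not overlap in the other 6 pairs, which include the near ties of BIRC5, CDC20 and CCNB1. The overlap rule leaves out counting error, so the order of those near ties is not resolved either. The mean levels spanned 3.02-fold, and the genes ranked from 776 (BIRC5) to 2434 (AURKA) of the 16645 genes with a read. Their median level was 108 CPM, against 22.1 CPM for the 10634 genes that had 10 or more reads. The levels count all models of a gene, and those of 3 genes rest largely on genomic models, reads that overlap the gene without matching its splicing. Without genomic models the mean level was 86.9 CPM in BIRC5, 40.3 CPM in MKI67 and 16.3 CPM in TOP2A, and CDC20, not BIRC5, was highest. Near copies took few reads: the pseudogenes AURKAP1, CCNB2P1 and CDC20P1 had at most 1 read in either library, and annotated genes that overlap CCNB2, PLK1 and TOP2A had 0 reads.

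**Figure D1:**
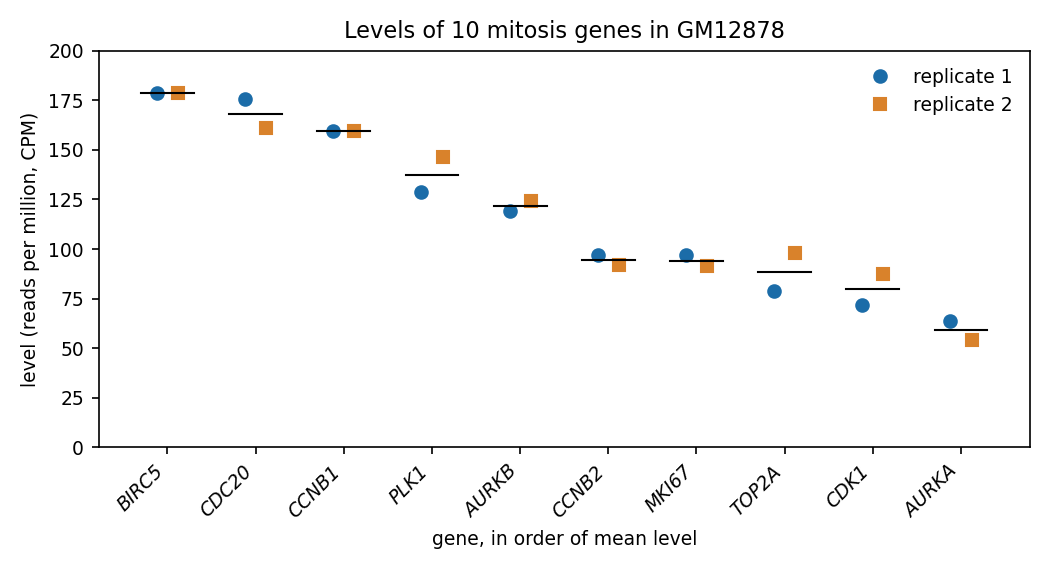
Level of each gene in CPM (vertical axis) in replicate 1 (circles) and replicate 2 (squares), with a line at the mean. BIRC5, CDC20 and CCNB1 lie between 159.5 and 178.7 CPM, and AURKA is lowest in both libraries at 64.0 and 54.3 CPM.

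No difference in total reads between the libraries passed the test in any of the 10 genes. In two-sided exact binomial tests against the library totals, with Benjamini-Hochberg adjustment over 10634 genes, 0 of 10 passed a threshold of 0.05, and 0 of 10 had an unadjusted p under 0.05, while 5.05% of all genes tested passed (2.72% higher and 2.33% lower in replicate 2). Of the 6105 genes with at least 50 reads, 9.62% passed. The log2 ratio of replicate 2 to replicate 1 ran from -0.24 in AURKA (adjusted p = 0.730, exact binomial test) to 0.31 in TOP2A (adjusted p = 0.424, exact binomial test). Of the 10 ratios, 5 lay above and 5 below 0, where BIRC5 changed sign with TMM scaling and CCNB1 with DESeq2 size factors, and their median was -0.00015 against 0.01 over all genes tested. Summed over the 10 genes, the libraries gave 1170.3 and 1193 CPM, on average 1181 CPM ± 15.8 (SD, n = 2).

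The composition of the reads differed widely between the genes. Each read was assigned to a transcript model in 1 of 5 categories. Known models match an annotated transcript, and incomplete splice matches (ISM) carry part of its run of junctions. NIC models join annotated splice sites in an unannotated way, NNC models use an unannotated splice site, and genomic models overlap the gene without matching its splicing. Over the 10 genes, known models held 42.1% (95% Wilson interval 39.7 to 44.5%) in replicate 1 and 27.2% (25.2 to 29.4%) in replicate 2, a mean of 34.7% ± 10.5 (SD, n = 2). ISM models held 29.02% and 42.3%, genomic models 16.7% and 22.1%, NIC models 8.48% and 5.38%, and NNC models 3.71% and 2.94%. The intervals cover counting error only. Of the 365 models, 29 were known, out of 82 annotated transcripts of the 10 genes in GENCODE release 29, and 209 rested on a single read.

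**Figure D2:**
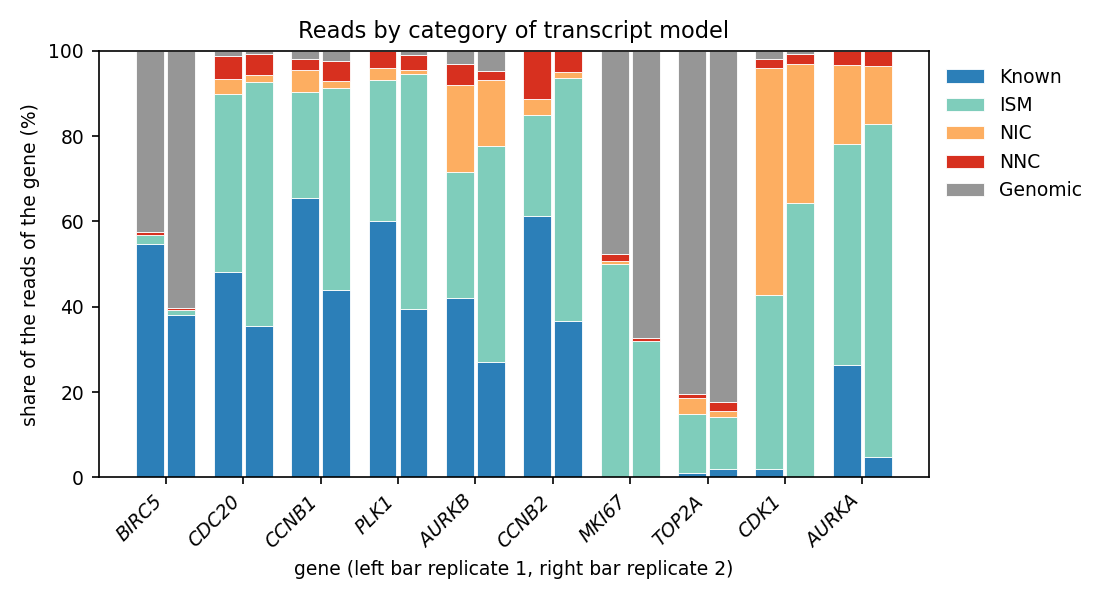
Share of the reads of each gene (percent, vertical axis) in known, ISM, NIC, NNC and genomic models, left bar replicate 1 and right bar replicate 2. Genomic models fill most of TOP2A (80.4 and 82.4%), NIC models are a large part of CDK1 (53.1 and 32.6%), and MKI67 has 0 reads in known models.

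Known reads of each B-type cyclin came mostly from a single full-length coding transcript. CCNB1-201 (9 exons, 2169 bases) held 136 of the 142 known reads of CCNB1 in replicate 1 and 97 of 106 in replicate 2. CCNB1-203, which lacks exon 8, had 3 and 0 reads. That exon of 111 bases lies in the coding sequence and keeps the frame (chr5:69177239-69177349, plus strand, GRCh38), and it is shown because it separates the 2 coding models:
CCNB1 exon 8: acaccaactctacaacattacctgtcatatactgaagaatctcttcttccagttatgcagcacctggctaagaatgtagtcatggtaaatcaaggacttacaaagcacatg
The other coding models of CCNB1 were rarer, CCNB1-205 with 1 read in each library and CCNB1-204 with 1 read in replicate 2. CCNB2-201 (9 exons, 1556 bases) held 80 of 81 and 51 of 51 known reads of CCNB2, and the remaining read was in CCNB2-205. Among the incomplete models of CCNB1, 3 suffix models had similar reads summed over both libraries and no fixed order: a 4-exon model of 666 bases (10 and 22 reads), a 3-exon model of 974 bases (6 and 23 reads) and a 6-exon model of 1722 bases (15 and 13 reads). The most frequent incomplete model of CCNB2 was a 4-exon suffix model of 690 bases, with 12 of 31 and 18 of 79 ISM reads. A 3-exon suffix model of 963 bases had 4 and 13 reads. A suffix model keeps the junctions on the 3′ side of the transcript, the side where direct RNA reads begin. Its end need not be the annotated one: the 4-exon CCNB1 model of 666 bases is shorter than the last exon of CCNB1-201 (722 bases).

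CDK1, the partner kinase of these cyclins, had almost no reads in known models. Only 2 reads in replicate 1 and 0 in replicate 2 fell in a known model, CDK1-201, a 7-exon transcript with a coding sequence of 720 bases. The reference transcript CDK1-203 has 8 exons and a coding sequence of 891 bases, and no read was listed for it. CDK1-201 lacks exon 5 of CDK1-203 (171 bases, chr10:60788060-60788230, plus strand, GRCh38), a coding exon that keeps the frame:
CDK1 exon 5: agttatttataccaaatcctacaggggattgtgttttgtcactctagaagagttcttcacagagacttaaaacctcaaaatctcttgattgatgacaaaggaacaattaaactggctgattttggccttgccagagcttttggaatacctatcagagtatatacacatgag
Most reads in spliced CDK1 models were in ENCODEHT000679581, a NIC model of 8 exons and 1890 bases. Its 44 and 39 reads were 44.9% and 29.5% of the reads of CDK1. The table gives no exon positions for unannotated models, so the splice sites of this model were not analysed here. A single-exon ISM model of 952 bases held a further 28 and 57 reads. By exon number, 55.1% and 32.6% of CDK1 reads were in models of 8 or more exons.

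The 3 mitotic kinases differed in how many transcripts shared their reads. PLK1 was nearly uniform: PLK1-201 (10 exons, 2227 bases) held all but 3 of 105 known reads in replicate 1 and all but 5 of 87 in replicate 2. The others were in PLK1-202, an intron-retaining transcript of 4135 bases. By reads summed over both libraries, the most frequent incomplete models of PLK1 had 2 exons (a suffix model, 12 and 41 reads) or 1 exon (11 and 27 reads). In AURKB, AURKB-214 held 55 of 68 and 37 of 51 known reads. AURKB was also the gene with the most models, 78, of which 54 had a single read, and NIC models took 20.4% and 15.4% of its reads. By reads summed over both libraries, its most frequent unannotated models were a 4-exon suffix model of 775 bases (7 and 24 reads) and an 8-exon one of 1196 bases (10 and 16 reads), while in replicate 1 a 9-exon NIC model of 1225 bases was first (11 and 12 reads). The coding transcripts AURKB-202 (3 and 2 reads) and AURKB-204 (1 read in each library) were rare, and AURKB-201 had 2 and 1 reads. It differs from AURKB-214 inside the coding sequence by 3 bases at the start of exon 5 (chr17:8207176-8207370, minus strand, in AURKB-201), shown in capitals across the junction of exons 4 and 5:
AURKB-201: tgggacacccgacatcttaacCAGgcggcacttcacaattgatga
AURKB-214: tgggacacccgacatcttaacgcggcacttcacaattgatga
AURKA had no dominant transcript. Its 23 known reads in replicate 1 were spread over 6 coding transcripts of 9 or 10 exons with the same coding length of 1209 bases, with 7 reads in AURKA-208, 5 in AURKA-206, 4 each in AURKA-202 and AURKA-201, 2 in AURKA-207 and 1 in AURKA-205, and replicate 2 had 4 known reads in 3 of them. A single-exon ISM model of 952 bases, where the last exon of AURKA-208 has 951 bases, held 22 and 34 reads, 25.3% and 41.5% of the gene.

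CDC20 was read as 2 transcripts with the same coding length but different first exons. CDC20-202 (10 exons, 1777 bases) had 90 and 58 reads, and CDC20-201 (11 exons, 1675 bases), which splices an additional first exon, had 21 and 9 reads. Both have 1497 coding bases. By summed reads, the leading incomplete models of CDC20 were suffix models of 6 exons and 1444 bases (17 and 27 reads) and of 4 exons and 726 bases (17 and 26 reads). In replicate 1 a 10-exon suffix model of 1781 bases was first (21 and 16 reads). CDC20-204, a 3-exon noncoding transcript of 422 bases from the 3′ part of the gene, had 4 reads in replicate 1 and 19 in replicate 2. Short noncoding known models of this kind also occurred in AURKB (AURKB-205, 7 and 10 reads), CCNB1 (CCNB1-207, 2 and 7 reads), BIRC5 (BIRC5-206, 7 and 6 reads) and TOP2A (TOP2A-204, 1 and 3 reads). Summed over these 5 models of under 1000 bases, there were 21 and 45 reads. Most of that difference lay in CDC20-204, which was singled out after its shares were seen, and BIRC5-206 went the other way. The sum was not tested.

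TOP2A and MKI67, the longest transcripts of the group, were almost never read in full. TOP2A-201 has 35 exons and 5758 bases. A single-interval genomic model listed at 343 bases held 86 of 107 TOP2A reads in replicate 1 and 121 of 148 in replicate 2, and just 19.6% and 17.6% of the reads were in models with 2 or more exons. A few reads had the full exon number: 4 reads in replicate 1 and 2 in replicate 2 were in models of 35 or more exons, led by the NIC model ENCODEHT000409491 of 5756 bases (3 and 1 reads). The annotated MKI67-202 has 15 exons and 12678 bases, of which exon 13 alone takes 6845. Reads in known models of MKI67 were 0 of 132 and 0 of 138, which allows shares of up to 2.27% and 2.17% by the limit of 3 reads. Its spliced reads were mostly in suffix models of 3 exons and 4785 bases (33 and 17 reads) and of 2 exons and 2965 bases (26 and 25 reads). Genomic models held 63 and 93 MKI67 reads, and the longest MKI67 model, an NNC model of 14 exons and 10345 bases, had 1 read in replicate 1.

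BIRC5 was read as 3 coding transcripts. BIRC5-202, the 4-exon transcript with a coding sequence of 426 bases, held 108 of 133 known reads in replicate 1 (81.2%, 95% Wilson interval 73.7 to 86.9%) and 82 of the known reads in replicate 2 (79.6%, 70.8 to 86.3%). The coding transcript BIRC5-201 had 5 and 7 reads. BIRC5-203 skips the exon of 118 bases, as in the form known as survivin-deltaEx3, and had 13 and 8 reads. The skipped exon (chr17:78216664-78216781, plus strand, GRCh38) is shown because it separates BIRC5-203 from BIRC5-202, and it does not keep the frame, since its length is no multiple of 3:
BIRC5 exon skipped in BIRC5-203: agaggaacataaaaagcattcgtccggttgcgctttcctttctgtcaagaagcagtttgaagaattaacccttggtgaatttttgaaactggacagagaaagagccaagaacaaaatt
BIRC5-202 was far above both other coding transcripts in each library, while BIRC5-203 and BIRC5-201 were 1 read apart in replicate 2. Incomplete spliced reads were fewer in BIRC5 than in any other of the 10 genes (ISM 5 and 3 reads). Nearly all remaining reads were in genomic models, 42.4% and 60.4% of the gene, mostly in a single interval of 1870 bases (95 and 147 reads).

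The difference in the share of reads in known models passed the test in 7 of the 10 genes, and in each of them the share was lower in replicate 2. In two-sided Fisher's exact tests of known against other reads, with Benjamini-Hochberg adjustment over 8265 genes with at least 10 reads in each library, 20.1% of all genes passed, 19.9% in the direction of a lower share in replicate 2. Passing was more frequent at higher depth: of the 3555 genes with at least 50 reads in each library, which include all 10 mitosis genes, 45.6% passed, and 7 of the 10 passed there too. Passing genes were BIRC5, CDC20, CCNB1, PLK1, AURKB, CCNB2 and AURKA. The largest difference was in CCNB2, where 81 of 132 reads (61.4%) were known in replicate 1 and 51 of 139 (36.7%) in replicate 2. That is a difference of -24.7 percentage points (95% Newcombe interval -35.6 to -12.8; adjusted p = 0.000758, Fisher's exact test). In AURKA 23 of 87 reads (26.4%) and 4 of 82 (4.88%) were known (adjusted p = 0.00133, Fisher's exact test). CCNB1 went from 65.4% to 44.0% (adjusted p = 7.76e-05, Fisher's exact test) and PLK1 from 105 of 175 to 87 of 221 known reads (adjusted p = 0.000674, Fisher's exact test). The smallest difference among the 7 was that of CDC20, from 48.1% to 35.4% (adjusted p = 0.0318, Fisher's exact test). MKI67, TOP2A and CDK1, with 0 to 3 known reads in a library, did not pass. The median difference over the 10 genes was -15.7 percentage points, against -7.51 over all genes tested. These 2 medians are not matched for depth or for the known share itself. As a mean of the libraries, that share had a median of 38.2% over the 10 genes. It was 24.3% over the 5797 multi-exon genes with at least 50 reads.

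The reads outside known models fell in different categories from gene to gene. In BIRC5 they were mostly genomic: 54.7% and 38.1% of all reads were known (adjusted p = 0.00206, Fisher's exact test), but without genomic models the difference was 1.26 percentage points in the opposite direction (adjusted p = 1.0, Fisher's exact test). In CCNB1 the ISM share was 24.9% (95% Wilson interval 19.6 to 31.0%) and 47.3% (41.1 to 53.6%), and in CCNB2 it was 23.5% (17.1 to 31.4%) and 56.8% (48.5 to 64.8%). Genomic reads took under 3% of either cyclin in each library. The ISM share was higher in replicate 2 in 7 genes and lower in TOP2A, MKI67 and BIRC5. These category shares other than the known share were not tested. With the level taken from known models alone, 1 of the 7 genes still testable differed in level between the libraries: AURKA, with a log2 ratio of -2.25 (adjusted p = 0.00698, exact binomial test), where the median over all genes was itself -0.26. In that count 18.8% of all 5528 genes tested passed, so 1 of 7 is near the share of genes at large.

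**Figure D3:**
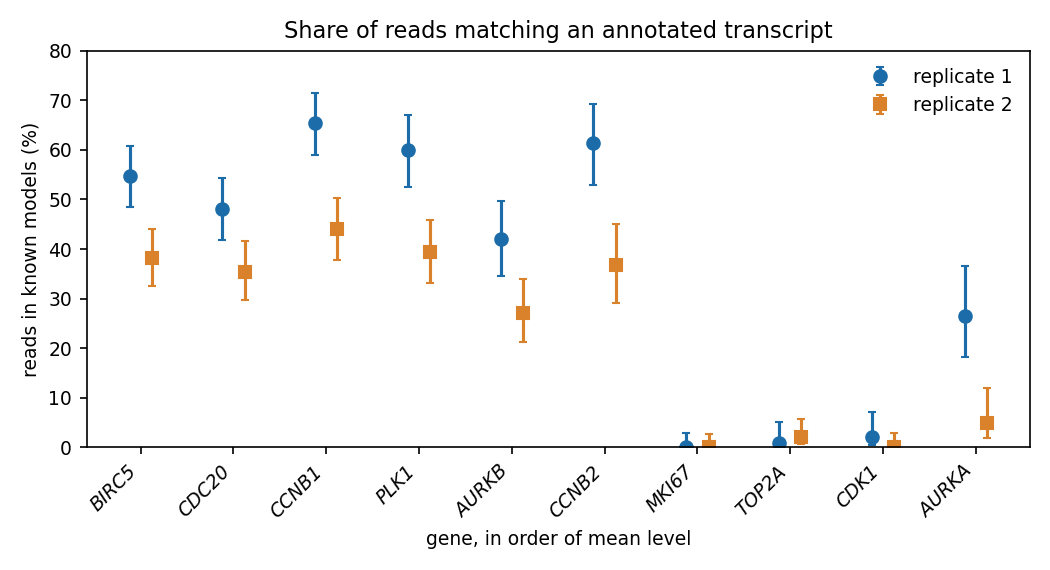
Share of reads in known models (percent, vertical axis) per gene in replicate 1 (circles) and replicate 2 (squares), with 95% Wilson intervals of counting error. The 7 genes that passed the test lie lower in replicate 2, and MKI67, TOP2A and CDK1 lie near 0 in both libraries.

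Most incomplete reads were in models with the 3′ junctions. Suffix models held 382 of 462 ISM reads of the 10 genes in replicate 1 (82.7%, 95% Wilson interval 79.0 to 85.9%) and 600 of 763 in replicate 2 (78.6%), on average 80.7% ± 2.86 (SD, n = 2). Only 15 and 23 reads were in prefix models, those with the 5′ junctions. In CDK1 and AURKA, 68.5% and 51.0% of ISM reads on average were in single-exon models that the table calls neither suffix nor prefix.

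Exon number describes how many exons the models of the reads held, without use of the category. A model with the reference exon number can still be an incomplete match. In CDC20, with 10 exons in CDC20-202, a 10-exon suffix model (21 and 16 reads) is counted here. In CCNB1, 69.1% and 45.6% of reads (replicates 1 and 2) were in models with at least the 9 exons of CCNB1-201. In CCNB2 they were 99 of 132 reads and 59 of 139. The corresponding shares were 67.8% and 43.6% in CDC20, 64.0% and 40.3% in PLK1, and 48.8% and 31.9% in AURKB. Replicate 2 was lower in 9 of the 10 genes, MKI67 being at 0 in both libraries, and the mean number of exons per read was lower in replicate 2 in all 10. For PLK1 that mean was 7.95 exons in replicate 1 and 6.17 in replicate 2, and for AURKA 6.43 and 4.52. These shares are a description and were not tested.

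**Figure D4:**
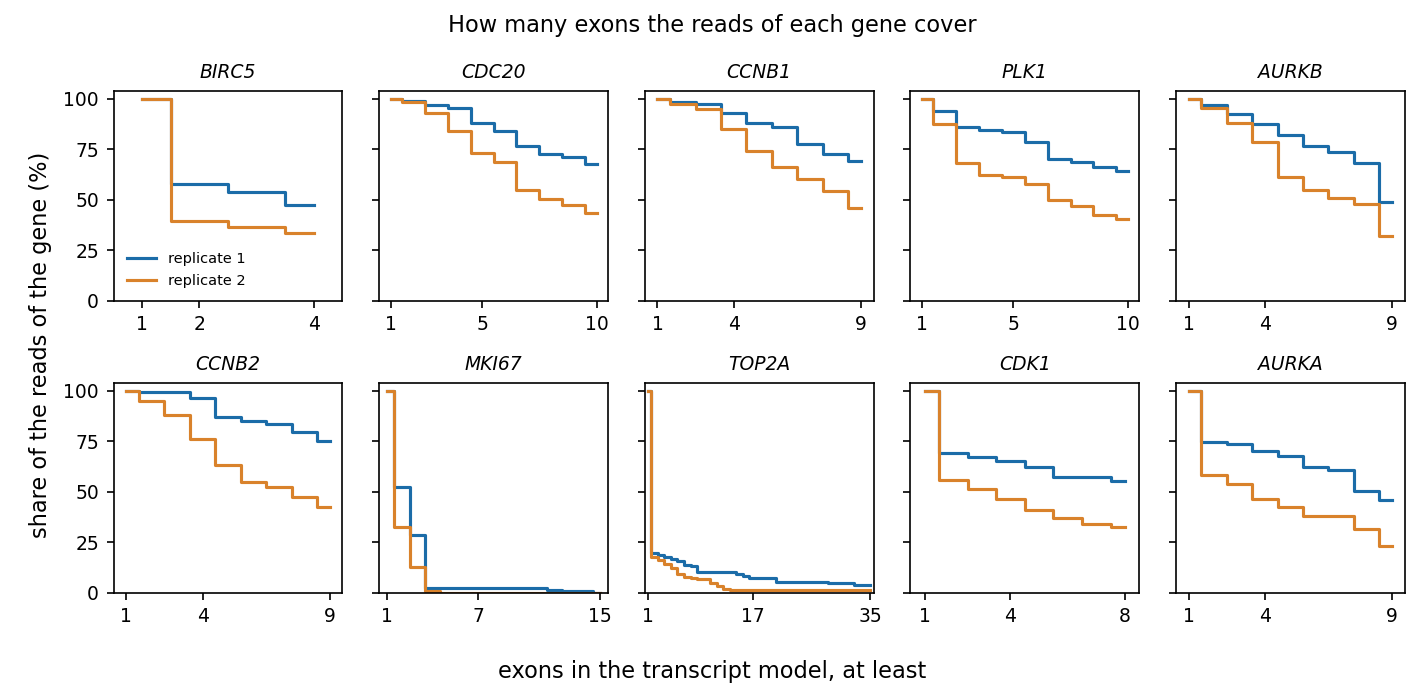
Share of the reads of each gene (percent, vertical axis) in models with at least the number of exons on the horizontal axis, up to the exon number of the reference transcript, for replicate 1 (blue) and replicate 2 (orange). BIRC5, CDK1, AURKA, MKI67 and TOP2A drop at the first step, which is the share of single-exon models, and CCNB1 or CDC20 fall gradually.

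The single-exon part of each gene went with the length of the last exon of its annotated reference transcript. CDC20, AURKB and CCNB2, with last exons of 253, 272 and 279 bases, had 1.45%, 3.94% and 2.90% of their reads in single-exon models (means of the 2 libraries). PLK1 (508 bases) had 9.48%. AURKA (951 bases) and CDK1 (976 bases) had 33.4% and 37.3%. BIRC5 (2172 bases) and MKI67 (2597 bases) had 51.6% ± 13.0 (SD, n = 2) and 57.6% ± 13.9 (SD, n = 2). CCNB1 and TOP2A departed from that order: CCNB1 had 2.17% with a last exon of 722 bases, and TOP2A had 81.4% ± 1.46 (SD, n = 2) with one of 1132 bases. For CCNB1 the annotated length is uncertain as a measure of the reads. Its 4-exon suffix model (10 and 22 reads) is listed at 666 bases in all, fewer than that exon alone. The last exon length carried by CCNB1 reads was not analysed. Spearman's rho over the 10 genes was 0.879, and 0.653 over the 5797 multi-exon genes with at least 50 reads, all from the same 2 libraries. Of those 5797 genes, 91.0% had a lower single-exon share than TOP2A and 10.6% a lower one than CCNB1. Among the 1451 genes with last exons of 477 to 1003 bases, which include CCNB1, the middle 50% of genes ran from 11.5 to 30.1%. Among the 1447 genes at 1005 to 2115 bases, which include TOP2A, they ran from 28.8 to 61.9%.

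**Figure D5:**
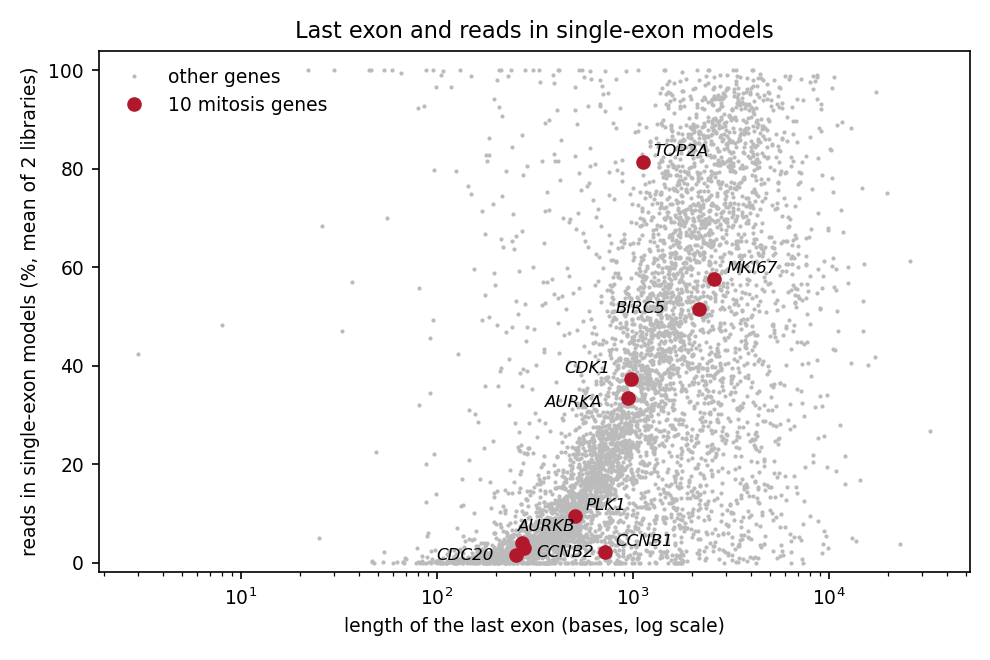
Length of the last exon of the reference transcript (bases, log scale) against the share of reads in single-exon models (percent, mean of 2 libraries) for the 10 mitosis genes (red) and the other multi-exon genes with at least 50 reads (grey). CCNB1 (2.17%) lies below and TOP2A (81.4%) above most genes with annotated last exons of similar length.

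Where a gene had several known models, no difference in the leading model passed the test. The 6 genes tested had at least 10 known reads in each library and 2 or more known models, and 0 of 6 passed a two-sided Fisher's exact test of the leading model (0 of 6 also at an unadjusted p under 0.05), against 8.9% of 2675 genes. The widest gap was in CDC20, where CDC20-202 held 78.3% and 67.4% of known reads (adjusted p = 0.429, Fisher's exact test). At these read numbers the 95% Wilson intervals of CDC20-202, 69.9 to 84.8% and 57.0 to 76.4%, overlapped. Those of the short noncoding CDC20-204 did not, at 3.48% (1.36 to 8.60%) and 22.1% (14.6 to 31.9%) of known reads, a difference that was not tested. CDC20-204 was singled out among the 29 known models of the 10 genes after its shares were seen.

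Other genes of mitosis were read in the same libraries. All 109 genes of 7 lists of mitotic factors had at least 10 reads, with a median level of 32.6 CPM. Of these, 2 were higher and 1 lower in replicate 2 (exact binomial test, adjusted over all genes), against 2.72% and 2.33% of all genes tested. Over the 109 genes the median log2 ratio was -0.05 (0.01 over all genes tested). The 3 that passed were RAD21, a cohesin subunit (52.9 and 92.0 CPM, adjusted p = 0.00403, exact binomial test), TOP2B, the isoenzyme of TOP2A (30.1 and 54.9 CPM, adjusted p = 0.0349, exact binomial test), and ANAPC5, a subunit of the anaphase-promoting complex (158 and 114 CPM, adjusted p = 0.0355, exact binomial test).

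Several genes of these lists were above all 10 mitosis genes. By mean level, the highest among kinase, cyclin and related regulators were ENSA (244 CPM), an inhibitor of the phosphatase that opposes CDK1, MYBL2 (231 CPM), a subunit of the MYB-MuvB activator, and CKS2 (219.9 CPM), a CDK-binding protein. Their order changed between the libraries: CKS2 (229 CPM) was above MYBL2 (221 CPM) in replicate 1, and MYBL2 (241 CPM) above ENSA (231 CPM) in replicate 2. UBE2S (302 CPM), ANAPC11 (202 CPM) and ANAPC5 (136 CPM) had the highest means of the anaphase-promoting complex and its ubiquitin enzymes, though UBE2C (126 CPM) was above ANAPC5 (114 CPM) in replicate 2. In the kinetochore and checkpoint list the highest means were those of BUB3 (212 CPM), PMF1 (67.4 CPM) and MAD1L1 (65.4 CPM), and in replicate 2 MAD2L1 (64.9 CPM) was above both PMF1 (57.6 CPM) and MAD1L1 (60.9 CPM). The cohesin list had its highest means in PTTG1 (193 CPM), which encodes securin, CDCA5 (74.1 CPM) and RAD21 (72.5 CPM). RAD21 (52.9 CPM) was below SMC1A (53.7 CPM) in replicate 1 and above CDCA5 (92.0 and 76.1 CPM) in replicate 2. The other partners of AURKB and BIRC5 in the chromosomal passenger complex were lower than either: CDCA8, which encodes borealin, had 58.3 CPM ± 3.83 (SD, n = 2) and INCENP 20.8 CPM ± 2.40 (SD, n = 2). By mean level CDCA3 (57.2 CPM) and PRC1 (53.2 CPM) followed CDCA8 in that list, though CDCA3 (56.3 CPM) was above CDCA8 (55.6 CPM) in replicate 2. In the condensin list NCAPD2 (109 CPM), NCAPH2 (92.2 CPM) and KIF22 (86.6 CPM) had the highest means, and KIF22 (88.0 CPM) was above NCAPH2 (86.7 CPM) in replicate 2. In the spindle list these were NUSAP1 (85.0 CPM), NUMA1 (72.0 CPM) and KIFC1 (69.8 CPM), and NUMA1 (60.2 CPM) was below KIFC1 (67.5 CPM) in replicate 2. AURKA (59.1 CPM) was below its activator TPX2, at 109 CPM ± 10.6 (SD, n = 2), in both libraries.

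The cell type fitted its label. All 8 B cell markers were read, with summed levels of 9122 and 9509.6 CPM, mostly CD74. Of the 8, 2 were higher in replicate 2, against 2.72% of all genes tested. They were CD74 (7766 and 8088 CPM, adjusted p = 0.0462, exact binomial test) and CR2 (33.1 and 66.2 CPM, adjusted p = 0.00322, exact binomial test). Of 10 markers of other lineages, LYZ, GATA1, HBG1, ALB and EPCAM had 0 reads. Their upper limits are 2.21 and 1.99 CPM (3 reads). That list summed to 32.3 and 39.0 CPM, most of it NKG7 (35 and 37 reads). CD3E had 5 and 16 reads, COL1A1 2 and 3, CD14 2 and 2, and APOA1 0 and 1. Across the whole table the known share was 55.9% and 45.9%, lower in replicate 2 as in the mitosis genes.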

How the data were processed

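Direct RNA libraries were made from column-extracted, depleted RNA with a reverse transcription step against secondary structure, per the labels' protocols. The authors deposited raw read counts per transcript model in 1 table, unnormalized, with a column per replicate. Per the submitters' processing notes, reads were mapped with minimap2 to hg38; the table's name shows that models were assigned with TALON, and versions and filters are not given in the sources used here. The exon number and bases of each model are deposited properties. All 29 known models of the 10 genes matched GENCODE release 29 in exon number and length, so positions were taken from it.

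Reads were summed per annotated gene. CPM used library totals of 1360368 and 1510998 reads, where 1 read is worth 0.735 and 0.662 CPM. Log2 ratios added 0.5 reads. With 1 group of 2 libraries edgeR's quasi-likelihood test has no residual degrees of freedom. Exact binomial and Fisher's exact tests (scipy 1.17.1) were therefore used, with Benjamini-Hochberg adjustment at 0.05. They were tried on simulated data with counting error only, which cannot show how they behave under further variation between libraries. TMM (edgeR 4.0.16) and DESeq2 (1.42.0) scaling were alternatives. The reference transcript was the APPRIS principal transcript with most reads, then the longest. Members, lists, tests and motifs were chosen with earlier results of these data known; measures of exon number and last exon were added after seeing the data. Named genes were the 10 members, the 3 highest of each wider list and those past the threshold. INCENP, TPX2, UBE2C, MAD2L1 and SMC1A were named after their values were seen. No gene was named for a like pattern, since 2 libraries give none.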

Additional observations from a re-analysis of the deposited data

How the results depend on the processing

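No paired analysis was possible because both libraries belong to 1 group. The tests compare the 2 libraries with each other, so none can be repeated with a replicate left out. Without replicate 1 or 2, the summed level was 1193 or 1170.3 CPM, the known share 27.2 or 42.1%, and the suffix share 78.6 or 82.7%; these are the 2 library values themselves.

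The summed level was 409 CPM with known models only, and 952 CPM with genomic models left out. With known models only, 1 of 7 testable genes differed in level, and 1042 of 5528 genes in all (18.8%). The order of levels kept 3 of 10 places with known models only and 0 of 10 with genomic models left out, where CDC20 was first and TOP2A last. TMM and DESeq2 scaling kept all 10 places. The known share was 49.2% of known and ISM reads.

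Of 57 alternative log2 ratios of single genes, 7 changed sign, none past the threshold: with known models only AURKB (-0.28), PLK1 (-0.14) and BIRC5 (-0.23), with genomic models left out BIRC5 (-0.47) and CCNB1 (0.061), with TMM scaling BIRC5 (-0.023) and with DESeq2 size factors CCNB1 (0.0090). The median over all genes was itself -0.26 with known models only. Of 40 alternative known share differences, 2 changed sign, both in BIRC5: 0.793 percentage points over known and ISM reads and 1.26 without genomic models. AURKA, CDK1, TOP2A and MKI67 had 0 to 23 known reads in a library, too few in at least 1 library for the test of the leading known model.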
